A study of Caenorhabditis elegans with 2 samples.

Results

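Among the 1861 peaks of NHR-2 binding that the authors' thresholded list held, 499 lay at promoters of chromosomes I to V, the autosomes of Caenorhabditis elegans. A peak was taken as a promoter peak when its summit, the position of highest enrichment, fell inside a window around the annotated 5′ end of a protein-coding gene, reaching 1000 bp upstream and 200 bp downstream. The promoter peaks made up 26.8% of all thresholded peaks and 35.5% (95% exact interval 33.0 to 38.1) of the 1405 autosomal ones. The other 906 autosomal peaks comprised 358 in introns, 422 between genes, 39 in exons and 87 in RNA genes. The choice used position alone, so neither signal nor sequence entered it.

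The data came from chromatin immunoprecipitation with sequencing (ChIP-seq), which recovers the DNA bound by a protein, in whole embryos of mixed stage and mixed sex, with 2 biological replicates of 1 group. The worms were of strain OP99, genotype unc-119(ed3) III; wgIs99, in which both replicates carried the same unc-119 allele and the same transgene. Which antibody was used is not clear from the labels, which speak both of eGFP-nhr-2 and of nhr-2. Transgenes of the wgIs series carry a tagged gene with its neighbouring DNA, so reads from the transgene and from the native nhr-2 locus cannot be told apart. A control library named in the labels and worms without the transgene were not analysed here. Every comparison was therefore within the genome, and peaks are regions of one list, not replicates of a condition. Whole embryos mix many cell types, so binding in few cells and weak binding in many cannot be told apart.

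NHR-2 is a member of the nuclear hormone receptors, transcription factors that grip DNA with a pair of zinc fingers and, in many family members, recognise the core word AGGTCA or a close relative. A promoter is the stretch around a gene's start where RNA polymerase II assembles. In the compact genome of C. elegans many genes lie head to head, so that the starts of both genes share a single stretch of intergenic DNA, called here a divergent promoter. Many worm messenger RNAs receive their 5′ end by trans-splicing of a leader RNA, which removes the original start. An annotated 5′ end therefore need not be the site where transcription begins.

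Windows of 151 bp around 9 summits are printed below, on the plus strand of build ce11, because they show the kinds of sequence that the comparisons turn on. The letters were read from the RefSeq WBcel235 genome, and windows were taken on chromosomes II to V where no annotated exon, of RNA genes included, overlaps them. In the first 4, the strongest of these at single and at divergent promoters with AGGTCA, capitals mark AGGTCA or its reverse complement.
cki-1: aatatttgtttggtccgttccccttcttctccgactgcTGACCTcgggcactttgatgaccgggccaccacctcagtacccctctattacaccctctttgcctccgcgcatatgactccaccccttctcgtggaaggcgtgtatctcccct
C47A4.1: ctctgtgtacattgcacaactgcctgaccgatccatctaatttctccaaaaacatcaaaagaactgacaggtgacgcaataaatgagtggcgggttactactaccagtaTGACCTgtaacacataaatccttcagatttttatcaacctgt
mig-22 and mtss-1: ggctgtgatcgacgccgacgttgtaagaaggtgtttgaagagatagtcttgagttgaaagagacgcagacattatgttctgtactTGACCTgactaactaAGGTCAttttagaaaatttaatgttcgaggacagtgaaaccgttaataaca
his-32 and his-31: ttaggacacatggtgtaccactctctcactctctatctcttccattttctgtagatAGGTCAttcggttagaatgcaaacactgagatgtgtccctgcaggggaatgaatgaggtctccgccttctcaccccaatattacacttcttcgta

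The cki-1 window is chrII:7810912-7811062, the C47A4.1 window chrIV:13716872-13717022, the mig-22 and mtss-1 window chrIII:8767585-8767735 and the his-32 and his-31 window chrIV:8334095-8334245. By the same limits, the strongest single and divergent promoter peaks with the GA repeat word GAGAGA and no AGGTCA were those of fbxl-5 (chrV:7742048-7742198) and of fahd-1 and ZK688.5 (chrIII:7891956-7892106); capitals mark the repeat, read as TCTCTC on this strand.
fbxl-5: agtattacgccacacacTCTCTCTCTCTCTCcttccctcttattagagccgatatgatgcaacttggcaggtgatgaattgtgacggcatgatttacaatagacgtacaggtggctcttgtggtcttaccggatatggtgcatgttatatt
fahd-1 and ZK688.5: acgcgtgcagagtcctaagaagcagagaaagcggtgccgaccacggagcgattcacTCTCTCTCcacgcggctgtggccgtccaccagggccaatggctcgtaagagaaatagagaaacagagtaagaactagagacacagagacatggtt

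The strongest such promoter peak that held none of the 9 planned words was that of F53C11.5 and F53C11.4 (chrV:13787626-13787776), and it has no capitals. The other windows below were chosen after the word comparisons were seen: that of rnst-2 (chrV:1060600-1060750) holds CAGGTG, and that of rpl-3 (chrIII:3867513-3867663), a ribosomal protein gene, holds AGCGCG, both marked in capitals as their reverse complements.
F53C11.5 and F53C11.4: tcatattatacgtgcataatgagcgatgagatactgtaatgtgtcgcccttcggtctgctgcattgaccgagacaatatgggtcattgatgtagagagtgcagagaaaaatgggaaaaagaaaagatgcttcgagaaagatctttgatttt
rnst-2: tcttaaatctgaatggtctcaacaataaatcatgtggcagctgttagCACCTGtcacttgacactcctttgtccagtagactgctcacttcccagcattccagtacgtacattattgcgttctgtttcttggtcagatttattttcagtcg
rpl-3: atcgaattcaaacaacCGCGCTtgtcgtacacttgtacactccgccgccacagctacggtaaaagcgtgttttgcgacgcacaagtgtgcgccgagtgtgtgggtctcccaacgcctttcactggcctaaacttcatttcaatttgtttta

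Promoter peaks were mostly weak. Signal, the authors' enrichment score for each peak, ran from 51.6 to 1111 among them, with a median of 72.5 and quartiles of 59.1 and 101.4. The other autosomal peaks had a median of 91.6 and quartiles of 65.9 and 150.4. A signal of 200 or more was reached by 33 promoter peaks (6.61%) and by 138 of the others (15.2%), and 20 of the 100 strongest autosomal peaks were promoter peaks. When the autosomal peaks were ordered by signal and divided into 5 bins of 281, the promoter share rose at each step, from 55 peaks (19.6%, interval 15.1 to 24.7) in the strongest bin through 29.9%, 35.6% and 44.1% to 136 peaks (48.4%, interval 42.4 to 54.4) in the weakest.

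**Figure D1:**
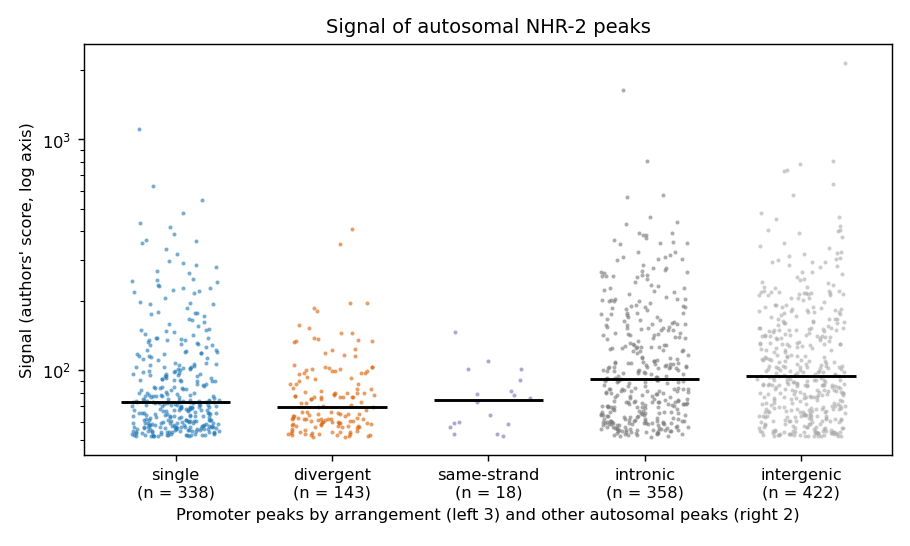
Signal of each peak on a log axis, for promoter peaks by arrangement of their genes and for autosomal intronic and intergenic peaks; each point is a peak and the bar is the group's median. The medians were 72.7 for single, 69.4 for divergent and 74.3 for same-strand promoter peaks, below 91.4 for intronic and 94.1 for intergenic peaks.

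A single gene held the summit in its window for 338 promoter peaks (67.7%, interval 63.4 to 71.8). A divergent pair held it for 143 (28.7%, interval 24.7 to 32.8), and genes on the same strand held it for 18 (3.61%). In gene numbers, 338 summits lay in the window of 1 gene, 151 in the windows of 2, 9 in those of 3 and 1 in those of 4 or more. The windows with a summit belonged to 656 of 17242 autosomal protein-coding genes (3.80%, interval 3.52 to 4.10), which are called bound genes below, and the 3.80% is the background for every gene list.

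The strongest promoter peak was that of nhr-2 itself, on chromosome I. Its signal of 1111 placed it at rank 5 among all thresholded peaks, with rank 4 in replicate 1 and rank 6 in replicate 2, and its summit lay 169 bp upstream of the 5′ end. A second promoter peak of nhr-2, with a signal of 234, lay 963 bp upstream. The strain carries nhr-2 sequence in its transgene as well as in the native locus, and the part of these copies in the signal was not tested.

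Genes of the cell cycle stood among the strongest promoter peaks. The peak of cki-1, an inhibitor of cyclin-dependent kinases of the CIP/KIP family, had a signal of 417 and lay 253 bp upstream of the gene. Its neighbour cki-2, of the same family, had a signal of 368 at 872 bp upstream. Both peaks were near the top of each replicate, at ranks 29 and 61 for cki-1 and 43 and 92 for cki-2 in replicates 1 and 2. The peak between cye-1, which encodes cyclin E, and pqn-21 had a signal of 354, the second highest of the divergent group, with ranks 73 and 56.

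The remaining strong single promoters served varied genes. The fbxl-5 peak, next in strength to nhr-2, had a signal of 628 and ranks 12 and 21, and lay 786 bp upstream of the gene. The summit at dex-1, whose product anchors sensory dendrites, had a signal of 545 and lay 69 bp downstream of the 5′ end, inside the gene. At ces-1, a zinc-finger gene of the Snail family that controls survival of particular neurons, the signal was 436 with ranks 33 and 36, at 524 bp upstream. The other genes of the 10 strongest single promoter peaks were R02D5.24 at 481, Y71A12B.12 at 389, D1046.16 at 364 and C47A4.1 at 355. All 10 ranked within the strongest 92 regions of each replicate. Of the 10, 6 held AGGTCA within 75 bp of the summit, namely those of nhr-2, dex-1, R02D5.24, ces-1, cki-1 and C47A4.1. Over all promoter peaks the share with AGGTCA was 16.4%.

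Divergent peaks were weaker at the top. The strongest, between F53C11.5 and F53C11.4, had a signal of 409 and ranks 39 and 52; its summit lay 349 bp from the 5′ end of F53C11.4 and 152 bp inside F53C11.5. Below cye-1 and pqn-21, the next in order had signals of 196 each. One lay between tba-1, an alpha-tubulin gene, and cox-5B, a cytochrome c oxidase subunit gene, and the other between mig-22, which encodes a chondroitin polymerising factor, and mtss-1, for a mitochondrial single-stranded DNA binding protein. The peak of his-67 and his-68, histone genes with the Argonaute gene alg-5 close by, had a signal of 187. Those of F52F12.8 with F52F12.5, of iff-2 with F54C9.14 and of the receptor genes nhr-152 with nhr-94 had signals of 180, 158 and 152. Only 8 of the 281 autosomal peaks in the strongest bin were divergent (2.85%), against 40 of 281 in the weakest (14.2%). Single promoter peaks rose between the same bins too, from 47 (16.7%) to 89 (31.7%).

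Candidate regions from the top 3000 of each replicate overlapped 424 promoter peaks (85.0%, interval 81.5 to 88.0), against 88.9% of the other autosomal peaks. Among the 1861 strongest of both, the shares were 58.9% and 72.4%. The list was drawn from both replicates, so these shares are a description. The median rank of promoter peaks was 1247 in replicate 1 and 1057 in replicate 2, and 791.5 and 829.5 for the others. Across the 495 promoter peaks with a candidate region in each replicate, the Spearman correlation of the signals was 0.458 and Pearson's r of their log2 values was 0.639; these are correlations across peaks of the same libraries.

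Some promoter peaks were far apart in rank between the replicates, and they are named here because of their values. The peak of mrps-7 and Y57G11C.3 was ranked 27290 in replicate 1 and 777 in replicate 2, and that of F56G4.6 and wbp-4 was ranked 14652 and 531. In the other direction, the peak of T01D3.3 was ranked 1175 and 28913. At the nuclear pore gene npp-10 and its neighbour cyk-3, with a signal of 115, the ranks were 5706 and 451. In each replicate 2 promoter peaks had no candidate region; those lacking one in replicate 2 were the peaks of hsp-4 and lin-23.

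**Figure D2:**
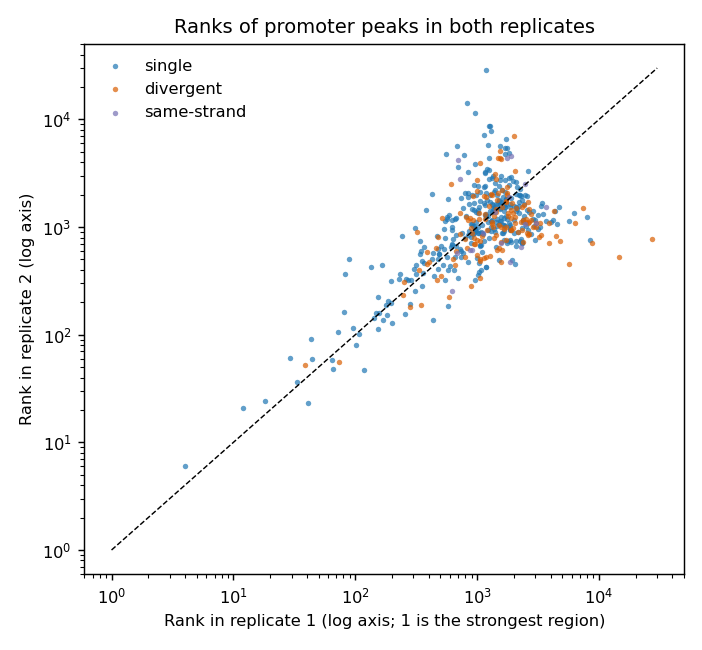
Rank of the overlapping candidate region in replicate 1 against that in replicate 2, both on log axes, for the 495 promoter peaks with a region in each; points are peaks coloured by arrangement and the dashed line marks equal ranks. Points lie nearest to the line among the strongest peaks, with exceptions such as ranks of 83 and 363 or 89 and 503. The spread is widest beyond a rank of about 1000, with extremes at 27290 in replicate 1 and 28913 in replicate 2.

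The position of a summit relative to a 5′ end chose the promoter peaks, so the values here describe where summits lay within a window that is mostly upstream. The median distance to the nearest 5′ end was 226 bp upstream, with quartiles of 114 and 459.5; 468 summits (93.8%) were upstream and 31 downstream. Within 300 bp upstream lay 270 (54.1%), and 111 (22.2%) were over 500 bp upstream. The fullest 100 bp bin was that from 100 to 200 bp upstream, with 115 summits (23.0%). The median was 292 bp for single and 153 bp for divergent promoters, the latter counted to the nearer of the genes.

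**Figure D3:**
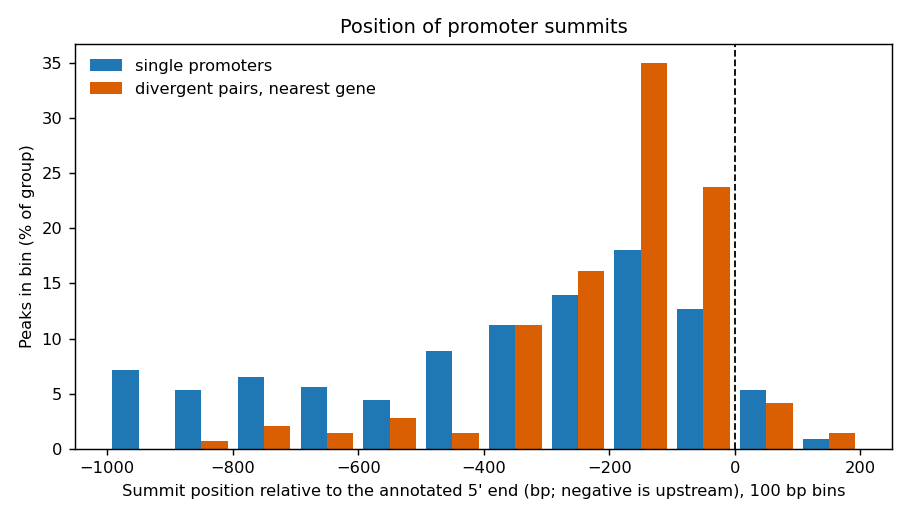
Position of the summit relative to the nearest annotated 5′ end in 100 bp bins, as a share of the 338 single and of the 143 divergent promoter peaks; negative values are upstream and the dashed line is the 5′ end. Of the divergent summits 50 fall in the bin from 100 to 200 bp upstream and few beyond 400 bp, while 61 of the single summits fall in that bin and 7.10% still lie in the bin from 900 to 1000 bp.

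The rule places most divergent summits between the genes, since each window reaches only 200 bp inside its gene. The gap between the 5′ ends of a pair had a median of 564 bp (quartiles 332 and 818, range 15 to 1697), and 135 of 143 summits (94.4%) lay within it. The median distance to the midpoint of the gap was 86 bp. The nearer 5′ end was a median of 153 bp away and the farther one 398 bp. The 143 peaks served 294 genes, since 9 of them lay in the windows of 3 or more.

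Head-to-head regions carried summits more often than other intergenic regions. Between neighbouring protein-coding genes on the autosomes there were 3641 head-to-head regions, of which 327 held an autosomal summit (8.98%, interval 8.07 to 9.96). Of 8715 head-to-tail regions, which hold the start of 1 gene, 314 did (3.60%, interval 3.22 to 4.02). Of 2341 tail-to-tail regions, which hold no start, 28 did (1.20%, interval 0.796 to 1.72).

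The order was the same in each of the 4 length classes under 5000 bp. Among regions under 500 bp, a summit was in 56 of 868 head-to-head regions (6.45%), in 46 of 3259 head-to-tail regions (1.41%) and in 2 of 1102 tail-to-tail regions (0.181%). Among regions from 2000 bp to under 5000 bp the shares were 9.57%, 5.61% and 4.61%. Per Mb of the regions under 500 bp there were 228 summits in head-to-head, 64.8 in head-to-tail and 8.87 in tail-to-tail regions. These shares have counting intervals only and no test was run on them.

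Counted by gene, 404 of 7281 genes with a head-to-head upstream neighbour were bound (5.55%, interval 5.03 to 6.10), against 212 of 8720 with a head-to-tail one (2.43%, interval 2.12 to 2.78). A divergent peak counts for both of its genes, which raises the share for head-to-head genes. With a head-to-head neighbour under 500 bp away 7.48% of genes were bound, falling to 2.99% at 5000 bp or more. With a head-to-tail neighbour the share was between 2.31% and 3.01% in every class of gap.

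Cytosolic ribosomal protein genes had 24 bound of 74 (32.4%, interval 22.0 to 44.3), against the background of 3.80%. The 24 genes shared 23 peaks, 18 of them divergent, with a median signal of 84.8 against 72.4 over all bound genes. The highest were rps-20, which shares its peak with ekl-4, at a signal of 145, and rpl-3, alone at its peak, at 143. Their ranks were 464 and 320 for rps-20 and 473 and 404 for rpl-3. None of the 23 peaks held AGGTCA within 75 bp (0%, interval to 14.8), 2 held GAGAGA, 14 held TTTTTT (60.9%, interval 38.5 to 80.3) and 9 held AGCGCG (39.1%, interval 19.7 to 61.5), against 16.4%, 27.1%, 30.3% and 12.0% over all promoter peaks. The count of bound ribosomal genes was 24 from replicate 2 alone and 25 from replicate 1 alone, and 12 among the 930 strongest thresholded peaks.

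Other genes of protein synthesis and folding were also represented. Translation factors had 5 bound of 37 (13.5%), led by iff-2, which encodes the factor eIF5A, at a signal of 158 and by eef-1A.1, an elongation factor 1-alpha gene that shares its peak with the replication gene rfc-4, at 146. Heat shock proteins had 7 bound of 19 (36.8%, interval 16.3 to 61.6), from 6 peaks. Among them hsp-110, which shares its peak with the proteasome gene rpn-3, had a signal of 117, and the mitochondrial chaperonin gene hsp-60 one of 97.3. The count of bound heat shock genes was 6 from replicate 2 alone and 5 from replicate 1 alone, and 2 among the 930 strongest thresholded peaks. The pair hsp-16.2 and hsp-16.41, small heat shock genes named here after their values were seen, shared a peak of 76.7. Of the chaperonin subunits, 2 of 8 were bound, cct-1 at 96.7 and cct-8 at 61.4. The interval of that share, 3.19 to 65.1, holds the background of 3.80%.

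Each list of genes for organelles and bulk turnover had an interval that held the background of 3.80%. Mitochondrial ribosomal proteins had 4 bound of 66 (6.06%), with mrpl-49 at 86.9 sharing a peak with rpl-28. Aminoacyl-tRNA synthetases had 1 of 31, ears-2. Proteasome subunits had 3 of 33 (9.09%, interval 1.92 to 24.3), with rpn-3 at 117 and rpt-2 at 53.2. The respiratory chain had 3 of 37 (8.11%, interval 1.70 to 21.9), with cox-5B at 196 and atp-1 at 77.1. The vacuolar ATPase had 2 of 17 (11.8%, interval 1.46 to 36.4), vha-8 and vha-9. Ubiquitin conjugation genes had 2 of 46, ubc-3 and ubc-25.

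Cyclins, cyclin-dependent kinases and their regulators had 10 bound of 36 (27.8%, interval 14.2 to 45.2), with a median signal of 141 against 72.4 over all bound genes. Besides cki-1, cki-2 and cye-1, and named after their values were seen, the list held fzr-1, whose product switches on the anaphase-promoting complex, at 281, cdk-2 at 177, mat-1, a subunit of that complex, at 106 and cya-1, cyclin A, at 101. The other bound genes of the list were lower, with cdk-5 at 72.9, lin-23 at 66.9 and cdc-14 at 52.1. AGGTCA was in 4 of the 10 peaks, those of cki-1, cye-1, fzr-1 and cya-1. That share of 40% had an interval of 12.2 to 73.8, which holds the 16.4% over all promoter peaks. From 1 replicate alone, 8 or 11 of these genes were bound, and 7 were among the 930 strongest thresholded peaks.

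Chromosome proteins and transcription machinery followed. Histone genes had 12 bound of 68 (17.6%, interval 9.47 to 28.8), against the background of 3.80%. They came from 7 peaks of which 5 were divergent, since core histone genes lie in head-to-head pairs. The pair his-67 with his-68 led at 187 and his-31 with his-32 followed at 134. Histone genes are near-identical copies, so the reads behind these peaks could have come from another copy. Histone variants and modifiers had 6 of 57, with set-16, an MLL-type methyltransferase gene, at 132 and htz-1, for the variant H2A.Z, at 99.8. GAGAGA was in 5 of those 6 peaks (83.3%, interval 35.9 to 99.6), against 27.1% over all promoter peaks. Condensins and cohesins had 1 of 17, dpy-27 of the dosage compensation complex, at 149. Replication genes had 4 of 34, with rfc-4 at 146 and pcn-1, the sliding clamp gene, at 90.2. RNA polymerase II, its general factors and Mediator had 6 of 56, with taf-4 at 69.4 and rpb-11 at 59.2, and splicing factors 4 of 48, with prp-31 at 106 and sftb-6 at 65.0. Tubulins had 3 of 12, with tba-1 at 196 and tba-2 at 131, the kinesins and dyneins 1 of 25, klp-18, and the nuclear pore 2 of 26, npp-10 and npp-7. Besides histone genes, 3 of these lists had intervals above the background. They were histone variants and modifiers (3.96 to 21.5), RNA polymerase II with its factors and Mediator (4.03 to 21.9) and tubulins (5.49 to 57.2). Each other list named here had an interval that held the background.

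Among lists of developmental regulators, the intervals of homeodomain and Wnt genes lay above the background of 3.80%. Homeodomain factors had 9 bound of 70 (12.9%, interval 6.05 to 23.0) from 11 peaks, led by ceh-20, a Pbx relative and partner of Hox proteins, at 205 and eyg-1 at 136. Wnt signalling had 7 of 27 (25.9%, interval 11.1 to 46.3), led by dsh-2, a Dishevelled gene, at 116 and mom-5, a Frizzled receptor gene, at 102. AGGTCA was in 2 of the 7 Wnt peaks, those of dsh-2 and mom-5. That share of 28.6% had an interval of 3.67 to 71.0, which holds the 16.4% over all promoter peaks. The Wnt count was 3 among the 930 strongest thresholded peaks and 11 with windows from 2000 bp upstream to 500 bp downstream. Basic helix-loop-helix factors had 3 of 30, with cnd-1, a NeuroD relative, at 242 and hlh-16 at 148. Cell polarity and P granule genes had 2 of 31, with pkc-3, an atypical protein kinase C gene, at 219 and spn-4 at 65.9. Notch signalling had 2 of 29, sel-2 and the ligand gene lag-2, and apoptosis 1 of 22, ces-1. T-box factors had 1 of 19, tbx-11, forkhead factors 1 of 11, let-381, and zinc-finger factors named ztf 1 of 22, ztf-11. GATA factors had 0 of 7 (interval 0 to 41.0). Apart from homeodomain and Wnt genes, each list named here had an interval that held the background.

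Families known mainly from differentiated cells differed in how far their intervals reached. Chemoreceptors, the receptors of sensory neurons, had 5 bound of 1331 (0.376%, interval 0.122 to 0.874), under the background of 3.80%. All 5, srt-63, str-81, srj-9, str-12 and sri-5, shared a divergent peak with a gene outside the family; the highest, srt-63, had a signal of 97.8 and str-81 one of 70.9. Nuclear hormone receptors themselves had 4 of 247 (1.62%, interval 0.443 to 4.09), nhr-2, the pair nhr-152 and nhr-94, and nhr-86. Cuticle collagens had 1 of 145 (interval 0.0175 to 3.78), col-38, which shares its peak with rpl-5, and C-type lectins 2 of 237 (interval 0.102 to 3.01), clec-140 and clec-196. Neuropeptides had 1 of 106, ins-24, with an interval of 0.0239 to 5.14. No gene was bound among 67 cytochrome P450 genes, 63 UDP-glucuronosyltransferases, 31 major sperm proteins and 87 ion channels of the twk, acr and lgc series. The upper bounds of those 4 shares were 5.36%, 5.69%, 11.2% and 4.15%, so the intervals of these lists, like those of the nuclear hormone receptors and neuropeptides, hold the background of 3.80%.

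F-box proteins of the fbxa, fbxb and fbxc series, a large nematode family of ubiquitin ligase adaptors, had 11 bound of 305 (3.61%), near the background, with fbxb-70 at 173 and fbxb-56, head to head with fbxb-93, at 134. AGGTCA was in 4 of their 10 peaks (40%, interval 12.2 to 73.8), against 16.4% over all promoter peaks. BATH and MATH domain proteins had 3 of 73 (4.11%), with bath-10 at 61.2 and bath-9 at 54.8. The lists were chosen with earlier results of these data known, and no test was run on them.

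**Figure D4:**
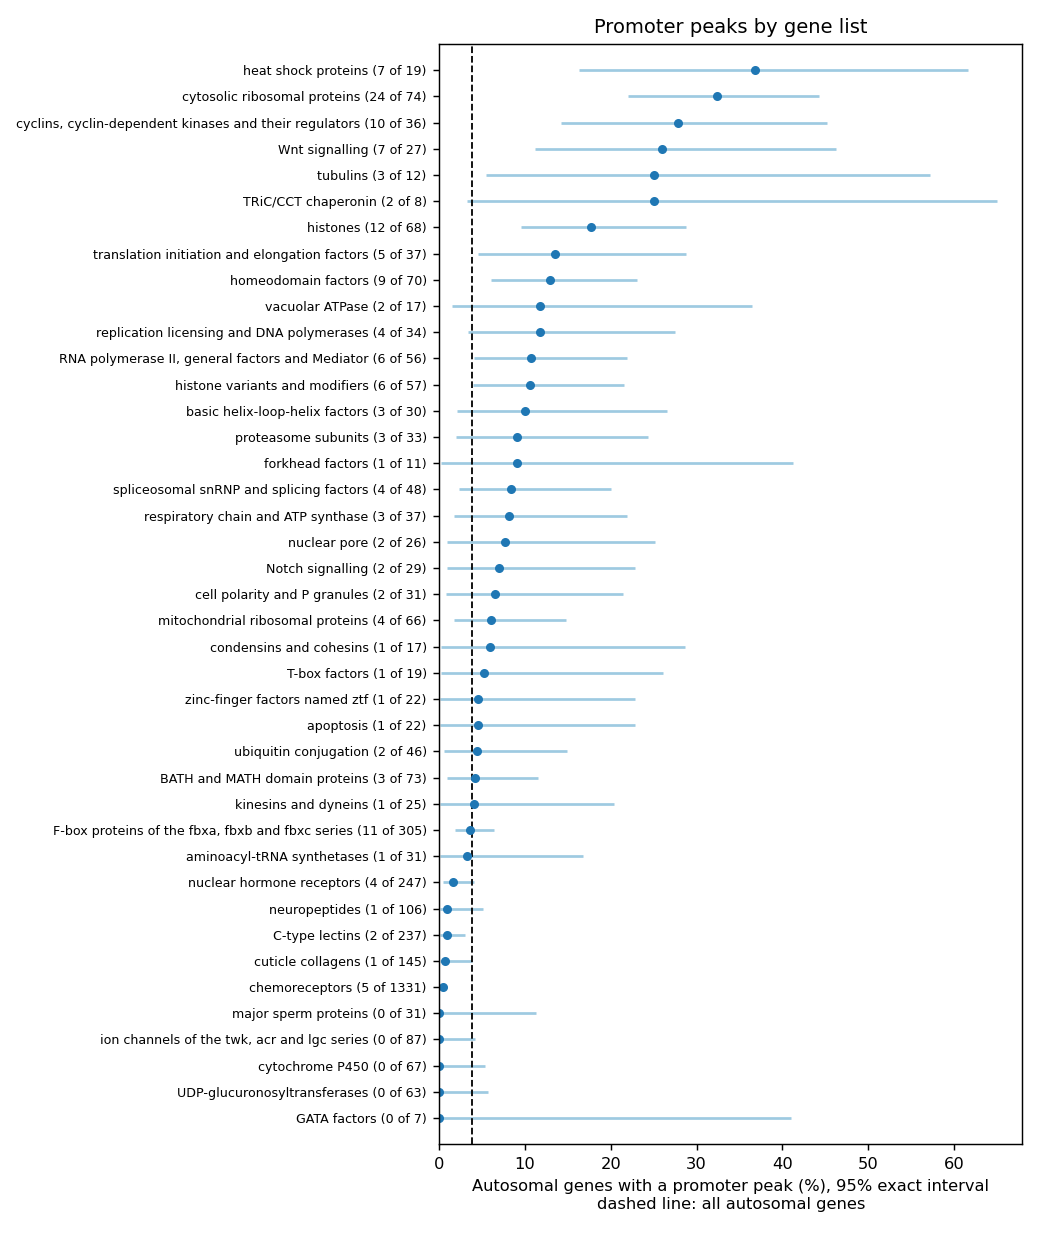
Share of the autosomal genes of each of 41 lists that had a promoter peak, with its 95% exact interval; the dashed line is the 3.80% of all autosomal protein-coding genes. Heat shock, cytosolic ribosomal and cyclin genes lie at 36.8%, 32.4% and 27.8%, while chemoreceptors lie at 0.376% and 5 lists have no bound gene.

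Sequence within 75 bp of the summits was rich in G and C. The median GC content of the 151 bp windows was 44.4% at promoter summits and 45.0% at the other autosomal summits, against 34.4% in flanks centred 400 bp from the same summits, on the side away from the nearest gene, and 33.8% in 17242 windows centred 226 bp upstream of every autosomal gene. Word shares below are shares of windows holding a word on either strand, which moves with base composition, and the part of base composition in them was not tested.

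The receptor core word AGGTCA was about as frequent at promoters as elsewhere among the peaks, with no matching of the groups for signal. It was in 82 of 499 promoter windows (16.4%, interval 13.3 to 19.98) and in 156 of 906 other windows (17.2%, interval 14.8 to 19.8), an odds ratio of 0.945 that did not pass (two-sided Fisher exact test, Benjamini-Hochberg adjusted over 2080 words, adjusted p = 0.929). The flanks of promoter summits held it in 2.61% of windows, so it was 6.31 times as frequent at the summit (exact McNemar test, adjusted p = 1.29e-12), and all autosomal promoter windows in 4.01%. Of its 89 copies, 43 lay within 25 bp of the summit and 45 read along the strand of the nearest gene (50.6%, interval 39.8 to 61.3).

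AGGTCA went with strong promoter peaks. It was in 14 of the 25 strongest (56.0%, interval 34.9 to 75.6), in 39 of the 100 strongest, in 22.5% (interval 17.5 to 28.2) of the 249 strongest and in 10.4% (interval 6.91 to 14.9) of the 250 weakest. The median signal was 107 with it and 69.9 without. For GAGAGA the medians were 72.9 with and 71.3 without, and the shares among those 249 and 250 peaks were 28.5% and 25.6%. Of the 499 promoter peaks, 16 held both words and 298 (59.7%) neither.

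The GA repeat word GAGAGA was in 135 promoter windows (27.1%) and in 31.7% of the others, a difference that did not pass (Fisher exact test, adjusted p = 0.295). It was in 8.42% of the flanks (exact McNemar test, adjusted p = 6.45e-13) and in 9.82% of all autosomal promoter windows. With replicate 2 alone its odds ratio of promoter over other summits was 0.687 and passed (Fisher exact test, adjusted p = 0.0243).

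Across all 2080 words, 135 (6.49%) were more frequent and 73 (3.51%) less frequent at promoter than at other autosomal summits. With replicate 2 alone the counts were 143 and 103, and with replicate 1 alone 100 and 43. The words higher at promoters included both extremes of composition: 15 held no G or C and 11 held only G and C, of 36 such words each. Among the A and T words, AAAAAT was in 34.7% of promoter and 14.1% of other windows (odds ratio 3.23, Fisher exact test, adjusted p = 3.74e-15), and TTTTTT in 30.3% and 17.7% (odds ratio 2.02, exact test, adjusted p = 1.15e-05). These A and T words were still less frequent at promoter summits than in their flanks, which held AAAAAT in 63.3% and TTTTTT in 54.9% of windows. Among the GC-rich words, AGCGCG was in 12.0% of promoter and 2.98% of other windows (odds ratio 4.45, exact test, adjusted p = 2.64e-08), with 3.01% in the flanks, and CGCGCC in 8.62% and 1.77% (odds ratio 5.25, exact test, adjusted p = 9.15e-07). CTTGCA, of mixed composition, was in 13.8% and 5.41% (odds ratio 2.81, exact test, adjusted p = 1.26e-05). These shares moved with distance from the 5′ end. Among the 270 summits within 300 bp upstream AAAAAT was in 44.4%, TTTTTT in 37.8% and AGCGCG in 16.7%. Among the 111 over 500 bp upstream they were in 14.4%, 22.5% and 3.60%. Intronic peaks held them in 14.0%, 19.3% and 3.07%, and intergenic peaks in 14.9%, 16.4% and 2.13%. For CTTGCA the shares were 15.9% and 10.8%, against 3.91% of intronic and 6.64% of intergenic peaks. No test was run on these strata.

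Words lower at promoters included the E-box CAGGTG, the recognition word of several helix-loop-helix and Snail-type factors. It was in 9.02% of promoter and 17.1% of other windows (odds ratio 0.480, Fisher exact test, adjusted p = 0.000804), and in 2.81% of the flanks. ACAGGT, which overlaps it, was in 5.61% and 14.0% (Fisher exact test, adjusted p = 5.17e-05). GTGTCA was in 8.42% and 18.1% (Fisher exact test, adjusted p = 4.39e-05) and ACGGAT in 1.20% and 6.07% (adjusted p = 0.000212). CAGGTG was in 5.93% of summits within 300 bp upstream and in 14.4% of those over 500 bp upstream, against 15.1% of intronic peaks. For GTGTCA these shares were 5.56%, 18.0% and 18.2%. ACGGAT stayed low at both distances, at 1.11% and 1.80%, against 5.87% of intronic peaks. No test was run on these strata. The other E-boxes among the planned words, CAGCTG and CACGTG, did not pass Fisher's exact test, with adjusted p = 0.985 and 0.253.

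Among the 930 strongest thresholded peaks, which left 180 promoter peaks, 12 words were higher and 1 was lower; strength and number of peaks changed together there and cannot be told apart. There AAAAAT kept an odds ratio of 2.83 (Fisher exact test, adjusted p = 0.00521) and AGCGCG one of 6.17 (adjusted p = 0.00521), while CAGGTG had 0.623 (adjusted p = 0.563), TTTTTT 2.13 (adjusted p = 0.0719) and CTTGCA 2.37 (adjusted p = 0.186). With promoter windows reaching 2000 bp upstream, CAGGTG had an odds ratio of 0.666 (Fisher exact test, adjusted p = 0.106). With words counted within 50 bp of the summit, TTTTTT had an odds ratio of 1.48 (Fisher exact test, adjusted p = 0.157).

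Against their own flanks, promoter summits had 332 words (16.0%) higher and 212 (10.2%) lower. At the 143 divergent peaks the gap between 5′ ends had a median of 564 bp, so such a flank can reach the start of the partner gene. How many flanks did so was not counted. With flanks on the side towards the gene the counts were 296 and 217. The clearest gains were CGTCTC, in 22.6% of summit and 4.21% of flank windows (exact McNemar test, adjusted p = 2.48e-16), and AGAGAC, in 26.3% and 5.81% (adjusted p = 4.01e-16). GCGCGC was in 11.2% and 1.00% (exact McNemar test, adjusted p = 1.96e-10). TTTCAG, the consensus of worm splice acceptors, was in 8.02% of summits and 31.9% of flanks (exact McNemar test, adjusted p = 2.28e-17). Of the other planned words, the GATA word TGATAA was in 5.01% and 13.4% (exact McNemar test, adjusted p = 5.48e-05) and the TATA word TATAAA in 10.2% and 16.0% (adjusted p = 0.0385). CAGCTG and CACGTG did not pass the exact McNemar test against the flanks, with adjusted p = 0.312 and 1.

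**Figure D5:**
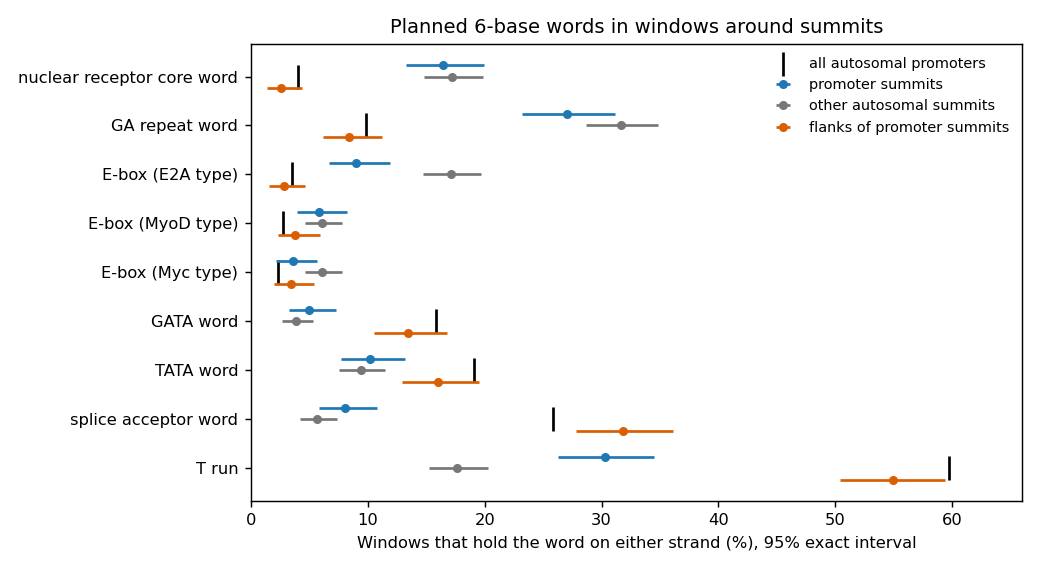
Share of windows of 151 bp that hold each of the 9 planned words on either strand, for the 499 promoter summits, the 906 other autosomal summits, the flanks of the promoter summits (points with 95% exact intervals) and all autosomal promoters (black ticks). The receptor core word lies at 16.4% and 17.2% at both kinds of summit and at 2.61% in flanks, while the T run lies at 30.3% at promoter summits, 17.7% at other summits and 54.9% in flanks.

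Divergent and single promoter summits differed in AGGTCA. The word was in 12 of 143 divergent windows (8.39%, interval 4.41 to 14.2) and in 66 of 338 single windows (19.5%, interval 15.4 to 24.2), an odds ratio of 0.378 (two-sided Fisher exact test, adjusted over the 9 planned words, adjusted p = 0.00834). TTTTTT went the other way, in 43.4% of divergent and 25.1% of single windows (odds ratio 2.28, Fisher exact test, adjusted p = 0.00123). These were the 2 of the 9 planned words that passed (22.2%). GAGAGA, in 21.7% and 28.7%, and CAGGTG, in 5.59% and 10.7%, did not pass Fisher's exact test, with adjusted p = 0.260 and 0.256. Divergent summits also lay nearer to a 5′ end, at a median of 153 bp against 292 bp. Over all promoter peaks AGGTCA was in 15.6% of summits within 300 bp upstream and in 22.5% of those over 500 bp upstream. For TTTTTT these shares were 37.8% and 22.5%. Arrangement and distance therefore cannot be told apart in these differences.

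The AGGTCA difference was less firm than that of TTTTTT in the 5 settings with values for both. Its adjusted p was 0.0505 with replicate 2 alone, 0.0967 with replicate 1 alone, 0.643 with promoter windows reaching 2000 bp upstream and 0.107 with words counted within 50 bp, where the odds ratios were 0.431, 0.478, 0.858 and 0.480. Among the 930 strongest thresholded peaks the odds ratio was 0.262 and passed (Fisher exact test, adjusted p = 0.0345). TTTTTT passed in all 5 of those settings, with odds ratios from 2.07 to 2.94.

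Peaks lay close to both edges of the promoter window. Just inside lay the summits of thk-1, 199 bp downstream of its 5′ end with a signal of 60.3, and of lin-40, 997 bp upstream with 54.7. Just outside lay the summits nearest to nstp-5, 1001 bp upstream with 87.4, and to nhr-23, a receptor gene related to mammalian ROR, 227 bp downstream with 110. The thk-1 peak was ranked 823 in replicate 1 and 14258 in replicate 2.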

How the data were processed

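The deposited region lists on build ce11 were used: the authors' peaks thresholded by the irreproducible discovery rate and a candidate list of 30000 regions for each replicate, per the texts deposited with the libraries. Signal is the authors' score in the deposited lists, and the deposited −log10 q values, mostly at their ceiling, were not used for ranking. The rate threshold, the aligner and the peak caller were not given in the sources used here. The lists hold no read numbers, so depth is unknown.

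Genes came from Ensembl release 115, and ends of all regions lay inside the WBcel235 chromosomes. Words of 6 bases were searched on both strands within 75 bp of each summit. Fisher and McNemar exact tests were two-sided, Benjamini-Hochberg adjusted, called at 0.05 and tested on simulated data; intervals are 95% Clopper-Pearson and cover counting error only. Python 3.11.15 with scipy 1.17.1 was used.

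The members, lists and words were chosen with earlier results of these data known, and several list patterns were corrected after values were seen because they matched genes of other families. Named genes are those of the 10 strongest single and 8 strongest divergent peaks, the 2 highest of each list, those at the window's edges and nhr-2. A gene with 3 or more peaks would also have been named, and there was none. Others, such as partners sharing a peak and genes whose replicates disagree, were named after their values were seen. Each printed window was chosen by strength and words. One gene list is not reported here. Peaks on X, in mitochondrial DNA and on build ce10 were left out.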

Additional observations from a re-analysis of the deposited data

How the results depend on the processing

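Of 95 values recomputed under 14 other settings, 69 kept their direction and their side of the threshold or stayed within their limits. With 1 replicate alone, as many strongest regions were taken as the thresholded list holds: bound genes were then 3.37% to 4.36%, the AGGTCA odds ratio of promoter over other summits was 0.675 to 1.09, that of GAGAGA 0.687 to 0.850 and that of AGGTCA at divergent over single summits 0.431 to 0.478. The 930 strongest thresholded peaks gave 180 promoter peaks, 24.4% divergent, 1.32% of genes bound, an AGGTCA odds ratio of 1.61 (Fisher exact test, adjusted p = 0.371), 13 words differing from other summits and 250 from flanks, a median signal of 119.8 and 98.9% of peaks in both replicates; it holds fewer peaks by construction. Windows of 500 bp upstream gave 2.82% of genes bound. Windows of 2000 bp gave 5.50%, with 126 words, and odds ratios of divergent over single summits of 0.858 for AGGTCA and 0.590 for GAGAGA (Fisher exact test, adjusted p = 0.0278). The 5′ ends of all transcripts gave 4.25% and leaving out RNA genes 3.51%. Words within 50 bp gave an AGGTCA odds ratio of 1.02 (Fisher exact test, adjusted p = 1), 130 words and 0.480 for AGGTCA at divergent over single summits. Requiring overlap of at least 50% put 75.2% of peaks in both replicates, and the 1861 strongest regions 58.9%. The cause of these moves was not tested. The main AGGTCA ratio of promoter over other summits never passed, so its reversals are around a value not distinguished from 1. Alternatives for single words and lists were added after the data were seen: the 930 strongest peaks left 12 ribosomal, 2 heat shock, 3 Wnt and 1 chemoreceptor genes bound, and windows of 2000 bp gave 14 homeodomain, 11 Wnt and 11 chemoreceptor genes. No comparison paired by sample was possible because there is 1 group.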

Other observations

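Bound genes were more frequent on some autosomes than on others. On chromosome I 163 of 2878 protein-coding genes were bound (5.66%, interval 4.85 to 6.57) and on chromosome III 148 of 2640 (5.61%, interval 4.76 to 6.55), against 2.26% (interval 1.87 to 2.71) of the 4994 genes of chromosome V. Chromosomes II and IV lay between, at 3.83% and 3.05%. The share of a chromosome's peaks that were promoter peaks ran from 29.7% on IV to 38.8% on III, with overlapping intervals.

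A pair of promoter peaks was found at 15 genes. Besides nhr-2, they included the homeodomain gene ceh-16, related to engrailed, with summits 95 and 619 bp upstream at signals of 133 and 71.7. The neuronal gene cnd-1 had summits 44 bp downstream and 628 bp upstream of its 5′ end, the farther one at 242 among the strongest of the promoter peaks.

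Annotated RNA genes held 39 promoter summits, 37 of them in the class ncRNA. Those of ces-1 and cki-2, among the 10 strongest single promoter peaks, lay in the ncRNA genes F43G9.19 and T05A6.19.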
